A study of Mus musculus with 5 samples.

Results

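Lysosomal genes were examined in mouse bone marrow cells that carry FLT3 and CD11b, which the labels call dendritic cell progenitors. The genes were chosen by symbol, with no cut on their signals, though earlier results of these data were known. They were a list of 33 lysosomal hydrolases and membrane proteins, to which every gene whose symbol begins with Atp6v or Atp6ap was added. Cathepsins were not among them. The array measured 46 such genes with 65 probe sets, of 8251 named genes and 12422 probe sets in all. They comprise 22 hydrolases and their lumenal partners, 8 membrane proteins and 16 proton pump genes, the last including Tcirg1 from the list. Sgsh and Arsb are named in the list and had no probe set.

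Total RNA of 5 samples, numbered 1 to 5, was hybridised to 1-colour arrays with 1 array per sample. All 5 form 1 group: the labels give no treatment, genotype, strain, age or animal, nor whether cells were pooled, so no comparison between conditions exists and the spread reported here is that between these samples, which may be technical. Signals are array intensities scaled to a common array median of 103.4, and the number of arrays limits their precision. Signals of different probe sets are not set against each other, since probe sets differ in how strongly they bind their transcript.

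A lysosome is the acidic compartment in which cells break down lipids, sugar chains and proteins. Soluble hydrolases are made in the endoplasmic reticulum and reach it largely through mannose 6-phosphate tags. Heavily glycosylated membrane proteins line its wall, and the vacuolar proton pump acidifies it. The pump has a cytosolic V1 sector, which splits ATP, and a membrane-embedded V0 sector, which passes protons. Phagocytes and dendritic cells use the same compartment to digest what they take up and to prepare antigen, and many lysosomal genes carry CACGTG elements near their start that TFEB and related factors bind.

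Promoter windows of 39 of the 46 genes were found in RefSeq (build GRCm38.p6), each reaching from 250 bases before to 50 bases after an annotated start, and the letters CACGTG, which read the same on both strands, stood in 10 of the 39 (25.6%). The same letters stood in 8.09% of all 27025 genes with such a window and in 11.5% of the 6576 that are on the array. TCACGTG, searched on both strands and holding CACGTG within it, matched the same 10 genes, against 4.29% of all genes and 6.78% of those on the array. GTCACGTG, which holds both shorter forms, matched 7 of 39 genes (17.9%), against 2.55% of all genes and 4.61% of those on the array. A match describes letters only and shows neither binding nor a cause. The windows with a match are shown because matches were found in all 3 kinds of lysosomal gene; capitals mark CACGTG, with the strand of the gene given in each line.
Lamp1, chr8:13159088-13159163, plus strand: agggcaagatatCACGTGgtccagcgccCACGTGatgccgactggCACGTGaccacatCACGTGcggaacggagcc
Cln3, chr7:126583340-126583397, minus strand: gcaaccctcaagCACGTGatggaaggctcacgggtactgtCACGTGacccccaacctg
Glb1, chr9:114401018-114401047, plus strand: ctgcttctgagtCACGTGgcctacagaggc
Arsa, chr15:89477423-89477452, minus strand: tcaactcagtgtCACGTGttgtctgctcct
Lgmn, chr12:102439124-102439153, minus strand: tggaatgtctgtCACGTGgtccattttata
Gaa, chr11:119267811-119267840, plus strand: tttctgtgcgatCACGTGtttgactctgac
Atp6v0b, chr4:117887330-117887377, minus strand: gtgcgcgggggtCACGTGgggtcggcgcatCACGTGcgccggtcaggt
Atp6v0d1, chr8:105566050-105566079, minus strand: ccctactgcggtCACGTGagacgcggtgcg
Atp6v1a, chr16:44139373-44139402, minus strand: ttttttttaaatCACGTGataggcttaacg
Atp6v0e, chr17:26676387-26676416, plus strand: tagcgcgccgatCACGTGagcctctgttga

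Lamp1 held 4 copies, the first beginning 61 bases before the start, while Cln3 and Atp6v0b held 2 each and the other 7 genes 1 each. All classes were represented, with 4 hydrolases, 2 membrane proteins and 4 pump genes. All 10 genes had signal above the array median on all 5 arrays, as did 26 of the 29 without a match. The median SD of log2 signal between samples was 0.43 for the 10 and 0.41 for the 28 of the 29 that passed the signal filter given below. The median deviation from a gene's own mean was 0.12, 0.10, -0.26, 0.28 and -0.31 log2 units in samples 1 to 5 for genes with CACGTG, and 0.08, 0.00, -0.24, 0.23 and 0.09 for those without. Over all genes that passed the filter it was -0.05, 0.06, -0.005, 0.20 and -0.09. In sample 5, genes with and without CACGTG stood on opposite sides of 0 and of that median, a difference that was not tested. Of the factors that bind such elements, Tfeb had signals of 49.0, 48.1, 9.68, 20.2 and 13.0 in samples 1 to 5, below the array median on every array. The Tfeb values in samples 3, 4 and 5 lay under 30.0, a floor below which values have no order. Mitf, a relative of Tfeb, had 45.1, 45.0, 154, 67.6 and 101 and was above the median on 1 array. Tfe3 and Tfec, from the same list of factors, were not among the measured genes, so their level is not known here.

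**Figure D1:**
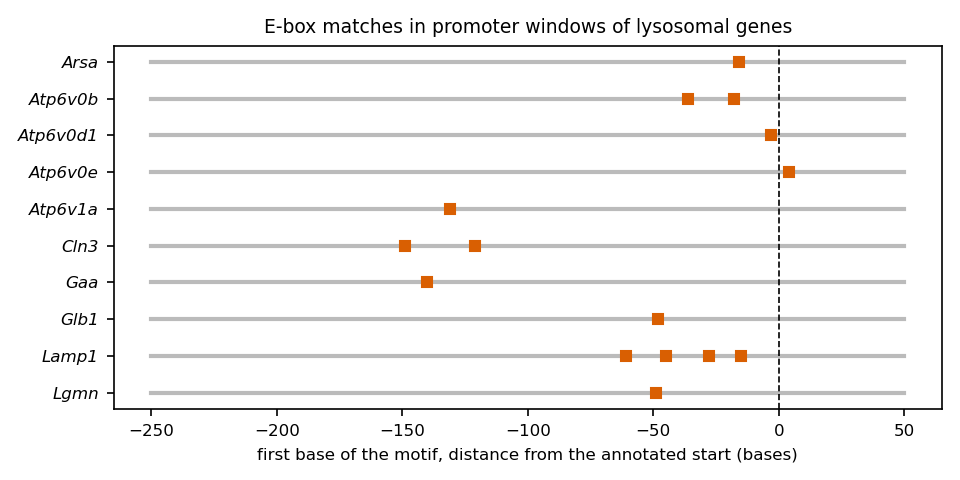
Position of CACGTG in the promoter windows of the 10 lysosomal genes that held it; the x axis gives the distance of its first base from the annotated start in bases, and each grey line is the window searched. Lamp1 has 4 matches, the first at -61, while those of Atp6v1a (-131), Gaa (-140) and Cln3 (-149 and -121) lie farther out.

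The arrays carried no detection call, so the limit used for a gene was a signal over the array median in each of the 5 samples. Of the 46 lysosomal genes, 43 were above it (93.5%), against 44.5% of all named genes. In both shares a gene with several probe sets was counted by its strongest one. With every probe set on its own, 50 of the 65 lysosomal probe sets were above the limit, and the matching share of all probe sets is not given here. By gene, the share was 20 of 22 for hydrolases (90.9%), 8 of 8 for membrane proteins and 15 of 16 for the proton pump (93.8%). The 3 remaining genes were Ppt1, Galc and Atp6v0e2. At a stricter limit, the 75th percentile of each array, 29 of 46 genes were above it on all 5 arrays, against 21.7% of all named genes. The classes separated there: 7 of 8 membrane proteins (87.5%) and 13 of 16 pump genes (81.2%) were above it, but 9 of 22 hydrolases (40.9%). No test was made of these shares, since the members were chosen with earlier results of these data known, and rank within an array is no proof of expression.

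**Figure D2:**
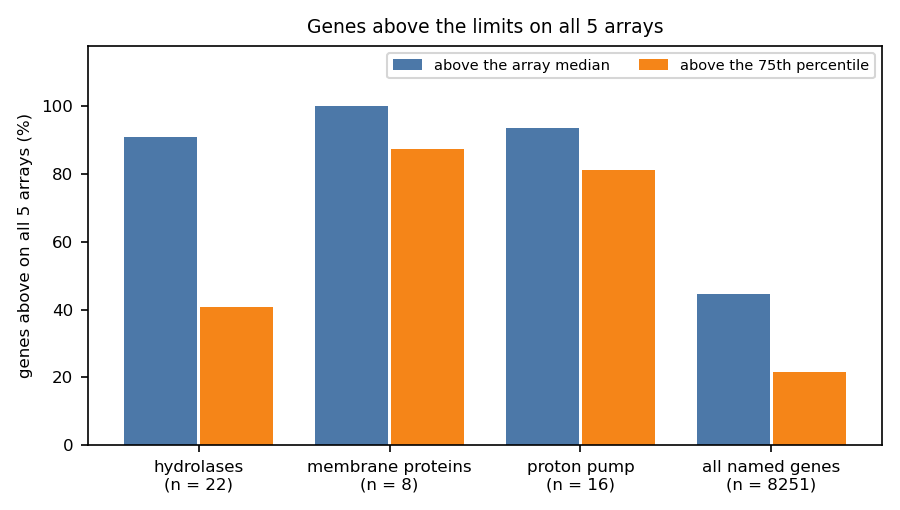
Percentage of genes above the array median (blue) and above the 75th percentile (orange) on all 5 arrays, for the 3 classes of lysosomal gene and all named genes. Each class exceeds the 44.5% of all named genes at the median, and hydrolases are lower at the 75th percentile, at 40.9%.

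The gene sets around the lysosome were read the same way, beside the 44.5% of all named genes above the array median on all 5 arrays. Of other lysosomal hydrolases and their helpers, 6 of 10 measured genes were above the array median on all 5 arrays, among them Naglu, which removes N-acetylglucosamine from heparan sulphate, and Ids, iduronate sulphatase. Of other lysosomal membrane proteins, 6 of 9 were, including Cd68, the macrophage glycoprotein, at 1107 ± 304 and Cd164, a sialomucin, at 2414 ± 843 (SD, n = 5). Genes of traffic to the lysosome were above it in 12 of 13 cases, with the late endosome GTPase Rab7 at 1042 ± 309. Genes of mannose 6-phosphate sorting were above it in 5 of 10. M6pr, the cation-dependent receptor for the tag, had 10.1, 53.9, 4.71, 3.58 and 22.5 in samples 1 to 5, below the median on every array, and Igf2r, the cation-independent receptor, had 98.2, 387, 297, 349 and 77.0.

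Both genes of the sort were above the array median on every array, and marker lists of other cells were counted against the same limit. The share of all named genes above it was 44.5%. Flt3 had 745 ± 463 and Itgam, which encodes CD11b, 477 ± 215. All 10 neutrophil granule genes were above the median on all 5 arrays. Their median deviation was -0.11, -0.65, -0.43, 0.87 and 0.40 log2 units in samples 1 to 5. Over all genes that passed the signal filter it was -0.05, 0.06, -0.005, 0.20 and -0.09. The granule genes differed in pattern: Mpo was highest in sample 4, at 8138, but Elane and Prtn3 in sample 1, at 10647 and 6429. Of macrophage genes, 5 of 11 were above the median, near the share of all named genes. Of osteoclast genes, 1 of 6 was above it, with Ctsk at 73.6 ± 11.7 and Calcr, the calcitonin receptor, at 18.7 ± 13.3. Mature dendritic cell genes had 2 of 8 above it, mast cell, basophil and eosinophil genes 3 of 7, progenitor genes 7 of 9, B cell genes 1 of 5, and T and NK cell genes and erythroid genes 0 of 4 each. Granulocytes and macrophages make many lysosomal proteins themselves, and in bulk samples fewer cells of a type cannot be told apart from less RNA per cell.

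The arrays differed in RNA quality measures and at high signal. For the actin control, samples 1 to 5 had ratios of 3' to 5' signal of 1.08, 3.003, 4.15, 5.20 and 2.55, and for the Gapdh control of 0.896, 1.06, 4.52, 3.42 and 2.01. Those of the transferrin receptor control were 3.14, 3.77, 16.7, 8.63 and 5.16. For the 125 probe sets that ranked highest by their log2 mean over the remaining 4 samples, the median difference from that mean was -0.64 in sample 1 and 0.48 in sample 4. Sample 1 had also been deposited on another scale than the other 4. For this reason deviations are given beside those of all genes tested, and results that turn on sample 1 are also given without it.

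Hydrolases of sphingolipids and their helpers formed the largest group. Psap, the precursor of the saposins that lift lipids out of the membrane for digestion, had signals of 2747, 7008, 4826, 8276 and 6733 in samples 1 to 5. Sample 1 was the lowest and sample 3 the next. A second Psap probe set, with 267, 319, 162, 386 and 303, was lowest in sample 3 instead, and another lay below the array median in every sample. Hexa, the alpha subunit of beta-hexosaminidase, had 1569, 1432, 643, 1059 and 1184, lowest in sample 3. Gm2a, the activator that presents GM2 ganglioside to that enzyme, varied less, with 562, 435, 370 and 562 in samples 1 to 4 and 493 in sample 5.

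Smpd1, acid sphingomyelinase, had 395, 184, 115, 398 and 372, and its SD of 0.81 on the log2 scale was the highest among the hydrolases tested. Samples 2 and 3 were low and the other 3 lay close together. Neu1, the lysosomal sialidase, had 683, 292, 412, 354 and 542, highest in sample 1. Glb1, beta-galactosidase, had 472, 569, 363, 462 and 266, and its second probe set, with 238, 293, 235, 214 and 192, had the same highest and lowest sample. Asah1, acid ceramidase, averaged 895 ± 199 and Arsa, which desulphates sulphatide, 179 ± 38.6 (SD, n = 5). Galc, which removes galactose from galactosylceramide, had 150, 160, 84.9, 123 and 210 and missed the limit through sample 3 alone.

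Enzymes of sugar chains were lowest in sample 3 in most cases. Gaa, acid alpha-glucosidase, which degrades glycogen, had 911, 598, 274, 604 and 729. Fuca1, alpha-fucosidase, had 384, 230.3, 130.0, 228 and 242, and Man2b1, alpha-mannosidase, 2354, 1917, 1309, 2265 and 1972. All 3 were highest in sample 1 and lowest in sample 3. Idua, iduronidase, had 188, 247, 136, 258 and 203 and was lowest there too. Gusb, beta-glucuronidase, had 1084, 692, 884, 874 and 938, lowest in sample 2.

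Proteins of lipid and protein breakdown had other patterns. Npc2, which carries cholesterol inside the lysosome, had 2056, 3165, 2414, 3143 and 4242, and Lipa, acid lipase, 148, 177, 160.4, 213 and 224. Both were lowest in sample 1 and highest in sample 5. Tpp1, a tripeptidyl peptidase, had 1044, 1971, 2205, 2951 and 2266, with sample 1 below all others. Lgmn, the asparagine-specific protease legumain, had 342, 627, 313, 606 and 239, with samples 2 and 4 high. Grn, progranulin, was steady at 2354 ± 335 (SD, n = 5).

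Ppt1, palmitoyl-protein thioesterase, was above the array median on 1 array only. Its signals were 28.5, 201, 15.7, 16.6 and 18.7 in samples 1 to 5, so sample 2 stood apart from the other 4, which all lay under the floor of 30.0 below which values have no order. Of the phosphatases, Acp2 had 252, 186, 143, 189 and 257 and Acp5, the tartrate-resistant form abundant in osteoclasts, 114, 131, 114, 202 and 166. Both were lowest in sample 3, Acp5 with sample 1 at nearly the same level.

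As a class the hydrolases were low in sample 3. Deviation here is a gene's log2 signal minus its own mean over the 5 samples, for the 45 lysosomal genes and 4557 genes in all whose mean signal lay above the common median, which Ppt1 did not. The class median was -0.34 in sample 3, against 0.00 for all tested genes. In sample 3, 18 of 21 hydrolases lay below their own mean, against 50.6% of all tested genes, and 11 of 21 had their lowest signal there, against 21.3%. Relative to all tested genes the class median was 0.15, -0.05, -0.33, 0.03 and 0.17 in samples 1 to 5, and in sample 3 it was -0.28 to -0.37 when any other sample was left out. In sample 1 it was 0.24 after quantile normalization, and in sample 5 it was 0.28 without sample 1. In samples 2 and 4 it lay near 0, and its sign differed between settings. Sample 3 had the highest Gapdh and transferrin receptor 3' to 5' ratios, 4.52 and 16.7, while the highest actin ratio was in sample 4. Sample 3 also had lower Itgam, at 223, than any other sample. Their part in the result was not tested.

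**Figure D3:**
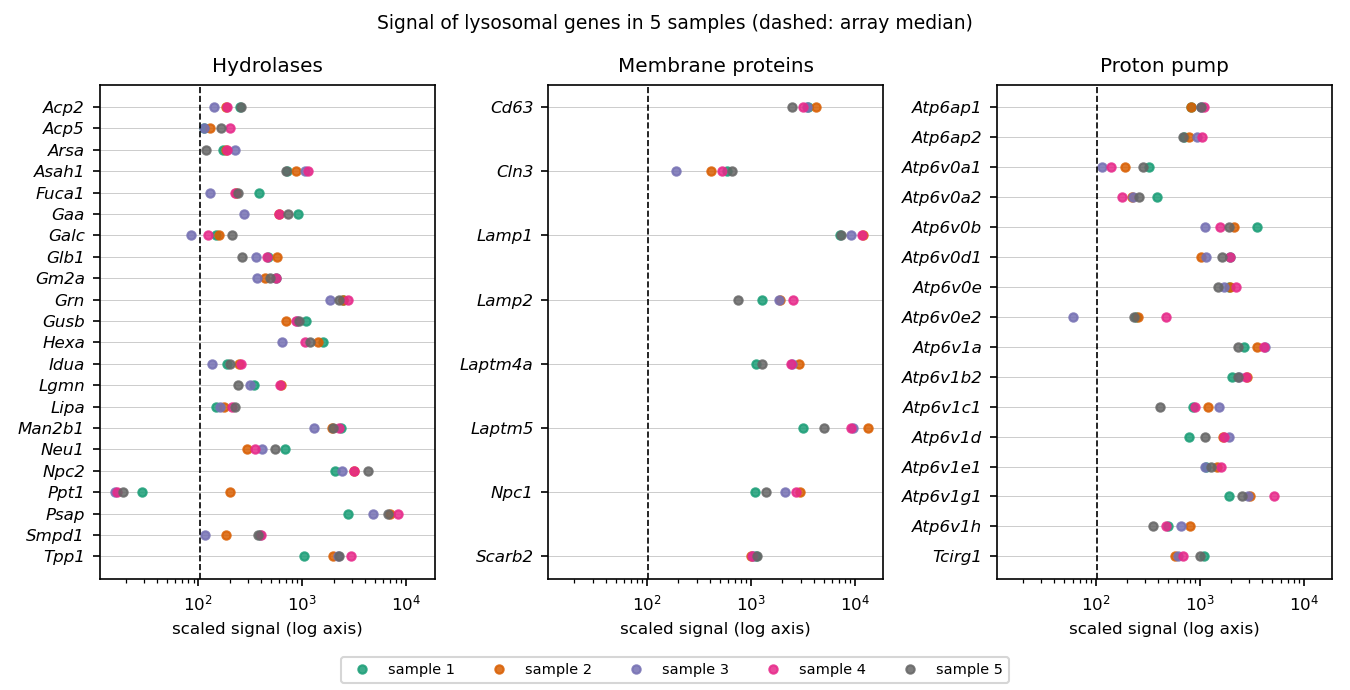
Scaled signal (log axis) of each lysosomal gene in samples 1 to 5, by class, with the array median of 103.4 as a dashed line. Of the 46 genes, 43 lie right of the line in all samples; Ppt1 lies left of it in 4, and Galc and Atp6v0e2 in sample 3 only.

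Membrane proteins had a larger spread between samples than the other 2 classes, with a median SD of 0.62 on the log2 scale, against 0.46 for all tested genes; it was 0.40 for hydrolases and 0.43 for the proton pump. After quantile normalization the median SD of membrane proteins was 0.51, against 0.45 for all tested genes. Without sample 1 it was 0.51, against 0.42. With every probe set on its own it was 0.54, against 0.47. The difference was not tested. Several membrane proteins shared a pattern in which samples 1 and 5 were low.

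Lamp1, a main glycoprotein of the lysosomal wall, had 7156, 11931, 9195, 11598 and 7419 in samples 1 to 5. Npc1, which exports cholesterol from the lysosome, had 1105, 2957, 2146, 2715 and 1392. Laptm4a, a small multispanning protein, had 1106, 2886, 2475, 2419 and 1272. In all 3 genes samples 1 and 5 lay below samples 2, 3 and 4, with no overlap. Lamp2, which also serves chaperone-mediated autophagy, had 1266, 1908, 1862, 2523 and 754 on the probe set used, and 475, 572, 660.4, 809 and 696 on the other. The first repeats the pattern of Lamp1; on the second, sample 5 was the second highest.

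Laptm5, a leukocyte protein that promotes degradation of antigen receptors, gave opposing patterns. The probe set with the higher mean had 3156, 13383, 9577, 9251 and 5025 in samples 1 to 5, and the other 2942, 2917, 2553, 4256 and 5570.5. Sample 5 was the second lowest by the first and the highest by the second. The first has the suffix f, which the maker gives to probe sets of sequence families, so it may not be specific to Laptm5.

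The remaining membrane proteins did not share the pattern. Scarb2, the receptor that brings glucocerebrosidase to the lysosome, had 1128, 993, 1049, 1029.6 and 1148, and its SD of 0.09 was the smallest among the 45 lysosomal genes tested. Cd63, a tetraspanin of late endosomes and secretory granules, had 3509.7, 4262, 3484, 3141 and 2478. Cln3, a membrane protein lost in juvenile Batten disease, had 591, 415, 190.2, 529.5 and 662, so it was highest in sample 5 and lowest in sample 3.

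The class median of membrane proteins, relative to all tested genes, was -0.28, 0.30, 0.12, 0.15 and -0.36 in samples 1 to 5. After quantile normalization it was -0.12 in sample 1 and 0.037 in sample 4. Without sample 1 it was 0.28, 0.068, 0.025 and -0.42 in samples 2 to 5, and without sample 5 it was -0.41 in sample 1, 0.23 in sample 2, 0.052 in sample 3 and 0.084 in sample 4. Without sample 2 it was 0.23 in sample 3, 0.27 in sample 4 and -0.23 in sample 5, and without sample 3 it was 0.22 in sample 4. Of the 8, 6 had their lowest signal in sample 1 or 5, against 51.8% of all tested genes; Laptm5 is among the 6 by the f probe set, and its other probe set was lowest in sample 3. All but 1 of the 8 belong to the top signal quartile of the tested genes, in which the median deviation of all 1139 genes was -0.17 in sample 1 and -0.18 in sample 5. Macrophage genes had a summed signal of 3326, 4434, 2179, 2806 and 1726 in samples 1 to 5. Apoe alone made up 1158, 1109, 83.4, 16.8 and 80.7 of these sums. The median deviation of the 8 macrophage genes tested was -0.03, 0.66, -0.13, 0.29 and -0.62. The 13 genes of traffic to the lysosome had a median deviation of -0.21, 0.10, -0.03, 0.27 and -0.17. For all tested genes it was -0.05, 0.06, -0.005, 0.20 and -0.09. The actin 3' to 5' ratio was lowest in samples 1 and 5, but the Gapdh and transferrin receptor ratios were lowest in samples 1 and 2. The part of signal level, macrophage genes and these ratios in the result was not tested.

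**Figure D4:**
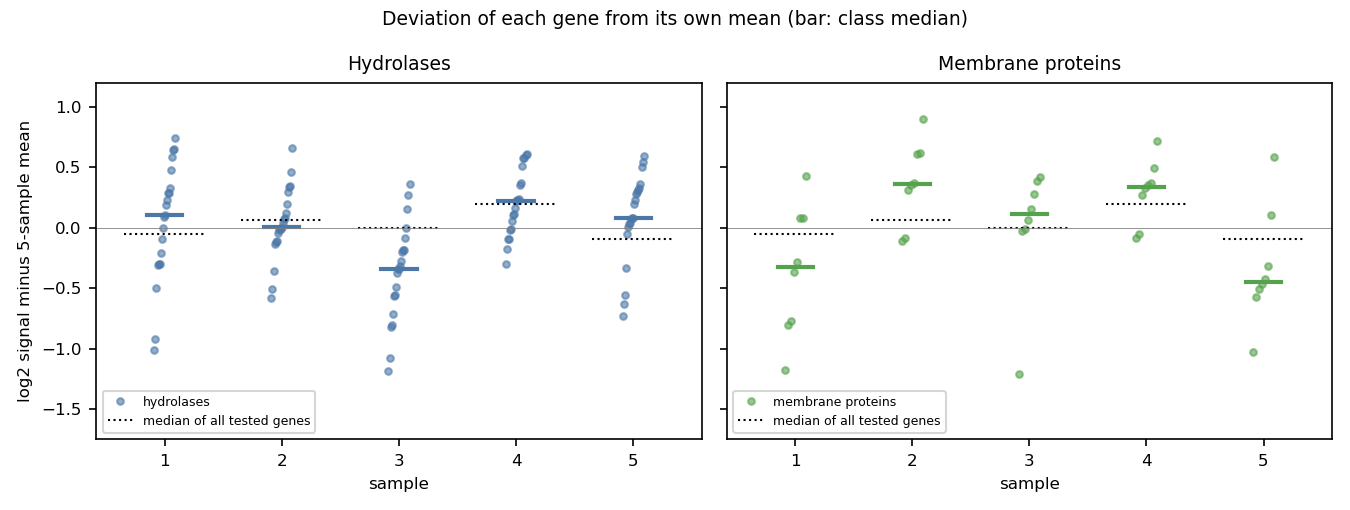
Deviation of each tested hydrolase and membrane protein gene (points) from its own 5-sample mean, in log2 units, in samples 1 to 5; bars are class medians and dotted lines the median of all 4557 tested genes. Hydrolases have their lowest median in sample 3 (-0.34), and membrane proteins in samples 1 (-0.32) and 5 (-0.45).

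As a whole the proton pump genes followed the other genes, with class medians between -0.07 and 0.05 relative to all tested genes in the 5 samples. Its 2 sectors, however, differed from each other, a split made after the values were seen. All 7 measured V1 genes lay below their own mean in sample 1, against 53.3% of all tested genes, and all 7 in sample 5, against 57.9%; after quantile normalization these counts were 6 and 5. All 7 V1 genes lay above their mean in sample 2, against 55.7%. That count was 6 after quantile normalization, 6 without sample 1 and 5 without sample 5. It stayed at 7 without sample 3 or sample 4. All 7 V0 genes lay above their own mean in sample 1, against 46.7%, and all 7 below it in sample 3, against 50.6%; 5 of the 7 were highest in sample 1, against 21.4%. The V1 median minus the V0 median was -0.76, 0.24, 0.66, 0.46 and -0.41 log2 units in samples 1 to 5. On the probe sets used, the deviations of V1 and V0 genes in sample 1 did not overlap, reaching at most -0.05 for V1 and at least 0.05 for V0. Without sample 2, 5 of 7 V1 genes lay below their mean in sample 1 and all 7 V0 genes above it. Without sample 3, these counts were 6 and 6.

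In the V1 sector, Atp6v1a, the catalytic A subunit, had 2670.3, 3560.2, 4245, 4122 and 2355 in samples 1 to 5, with samples 1 and 5 below the others. Atp6v1b2, the B subunit form of most tissues, varied little on the probe set used, at 2476 ± 324 (SD, n = 5). The stalk subunit gene Atp6v1e1 also varied little, at 1325 ± 210.3. Atp6v1d, of the central rotor, had 784, 1675, 1906, 1729.7 and 1127. Atp6v1g1, of the peripheral stalk, had 1920.0, 3040.4, 2933, 5203 and 2568. In both, samples 1 and 5 were the lowest. Atp6v1h, a regulatory subunit, had 495, 816, 659, 476 and 352, and Atp6v1c1, which links the stalks to the membrane sector, 869, 1194, 1530.0, 895 and 417, so sample 5 was lowest in both.

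In the V0 sector, Atp6v0b, a subunit of the proteolipid ring, had 3539, 2125, 1120.5, 1559 and 1907. Sample 1 was high and sample 3 low. The a subunit, which carries the proton path and has several forms, gave 1092, 584, 615, 685 and 1019 for Tcirg1, the a3 form of osteoclasts and immune cells, with samples 1 and 5 above the others. Atp6v0a1 had 324, 189.9, 115, 139 and 285, again with samples 1 and 5 high, and Atp6v0a2 had 387, 226, 231, 177 and 264, again highest in samples 1 and 5. Atp6v0d1, which couples the rotor to the ring, had 1956, 1029.7, 1159, 1949.9 and 1633. Of the small e subunits, Atp6v0e had 1905, 1940.2, 1714, 2259 and 1487, and Atp6v0e2 had 244, 255, 60.6, 474 and 236, low in sample 3.

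The accessory genes were close to even. Atp6ap1, which encodes Ac45 and helps assemble the pump, had 963 ± 124, and Atp6ap2, the prorenin receptor, 838 ± 157 (SD, n = 5).

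The sector split depended in part on the probe set. A second Atp6v1a probe set had 552, 562, 355, 544 and 534 and was lowest in sample 3, while another, with 1246, 2229, 2407, 3271 and 1535, followed the one used. The second Atp6v1b2 probe set had 183, 170, 87.4, 190 and 162. It was also lowest in sample 3, and it lay 0.26 log2 units above its mean in sample 1. Of the other Atp6v0a2 probe sets, 1 had 108, 121, 140.4, 183 and 64.3 and 1 had 128, 201, 173, 212 and 238, and neither was highest in sample 1. With every tested probe set counted, 8 of 10 V1 probe sets lay below their mean in sample 1 and 7 of 9 V0 probe sets above it, and the difference between the medians there was -0.62. Without sample 1 the difference was 0.03, 0.53, 0.18 and -0.71 in samples 2 to 5. Of the V1 genes, 6 of 7 belong to the top signal quartile of the tested genes, against 4 of 7 V0 genes, and their part in the result was not tested. Of the 3' to 5' ratios, that of actin was lowest in samples 1 and 5, at 1.08 and 2.55. Those of Gapdh and the transferrin receptor were lowest in samples 1 and 2. The part of these ratios in the sector split was not tested.

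**Figure D5:**
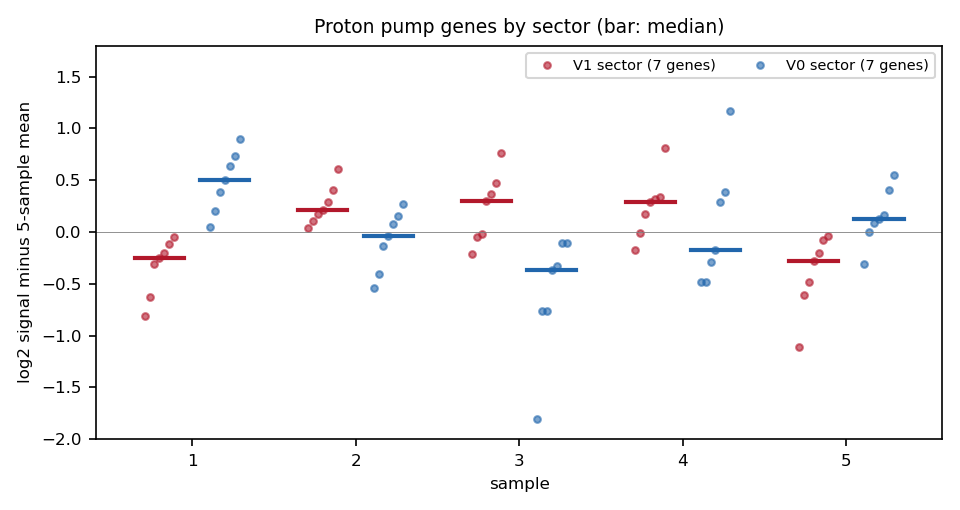
Deviation of the 7 V1 genes (red) and the 7 V0 genes (blue) from their own 5-sample mean, in log2 units, in samples 1 to 5, with medians as bars. V1 genes lie below and V0 genes above their means in sample 1, and the medians stand the other way round in samples 2, 3 and 4.

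The spread of single lysosomal genes was set against that of all probe sets. With 1 array per sample there is no error within a sample, so the test asks only whether a gene's variance is unusual among the rest. In limma's test, which sets each probe set's variance against an F distribution fitted to all 5814 probe sets above the common median, 0 of the 45 lysosomal genes had an adjusted p under 0.05, and 0 of 5814 probe sets did (0%). At an unadjusted p under 0.05 stood 1 of 45 lysosomal genes, Atp6v0e2, against 4.99% of all probe sets; its limma p was 0.0391 and its adjusted p 0.925. The next lowest were Smpd1, with an adjusted p of 0.937 in limma, and Laptm5, also at 0.937. A p over the threshold does not show that the samples were alike. By Dixon's test at 95%, 0 of the 45 had an outlying sample, against 5.97% of all tested genes.

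Several genes had more than 1 probe set, and these did not always agree. Of 16 such genes, 12 had a probe set that fell short of the limit beside 1 that was above it. In 7 genes at least 2 probe sets passed the signal filter, and setting the probe set used against each other one gave 9 pairs, of which 3 shared the sample of highest signal and 1 shared the sample of lowest signal. The pair that shared both was that of Glb1, whose second probe set also has the suffix f. In the other pairs, such as those of Laptm5, Atp6v0a2 and Psap, deviations in a single sample differed by up to 1.18 log2 units.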

How the data were processed

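Total RNA of 5 samples of 1 group was measured on 1-colour arrays. The authors deposited 1 intensity value (linear, not log) for each probe set; the software and scaling behind them are not given in the sources used here, and the 2% trimmed mean of the deposited values was 999.8 in sample 1 and about 200.0 in the others. The 66 control probe sets were left out. Each array was multiplied by 1 factor so that its median became 103.4, a floor was set at 30.0 (the 25th percentile over all arrays), and log2 was taken. Signals quoted are scaled values before that floor. Genes were named from the platform annotation: 10833 probe sets had 1 symbol, 396 had several and were not named, 1193 were not listed. Each gene was represented by the probe set whose log2 signal had the highest mean. Probe sets with a mean above the common median entered limma's variance test (limma 3.58.1, R 4.3.3, robust fit with a trend on mean signal, Benjamini-Hochberg over 5814). In simulated data all probe sets shared 1 SD, except 200 with 4 or 8 times it, of which the test called 174 and 198. In the real data SDs differed between probe sets, so this does not show the power of the test here. Tables were made with Python 3.11.15, numpy 2.4.6 and pandas 2.3.3, and figures with matplotlib 3.10.9. Promoter windows are from RefSeq (GRCm38.p6). The members and lists were chosen with earlier results of these data known, and all members could be named; of other genes, the first 3 measured of each list, those with an outlying sample and the sorted genes. Shares and deviations are descriptions without a test. Alternatives were other scalings, floors, limits, probe set choices and leaving out each sample.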

Additional observations from a re-analysis of the deposited data

Results flagged for a closer look

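A single sample lay far from the other 4 in 5 of 65 probe sets of lysosomal genes (7.69%), against 17.2% of all 12422 probe sets, by Dixon's test on log2 signal with values under 30.0 raised to it; chance alone marks about 1 in 20. Among probe sets that passed the signal filter it was 2 of 54 (3.70%), against 6.04% of all 5814, so neither share exceeded that of all probe sets. The Dixon ratio, the gap to the nearest sample over the whole range, was 1 for Ppt1, with sample 2 high at 201 and the other 4 at the floor. It was also 1 for the weaker Gaa probe set, where sample 1, at 48.0, was the 1 value above the floor. In both, the ratio of 1 follows from raising the other 4 values to the same floor. The second Atp6v0a1 probe set had a ratio of 0.805, with sample 5 high at 87.3. For the second Atp6v1a probe set it was 0.885 and for the second Atp6v1b2 probe set 0.794, both with sample 3 low, at 355 and 87.4. None of the 5 was the probe set that represented a gene passing the signal filter.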

How the results depend on the processing

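Of 262 recomputed values for 29 results, 243 moved by less than the spread between samples or, for counts, by less than 1.5 times, and 19 moved further. That spread was the SD of the result itself over the samples, so larger differences between samples allowed larger moves. It was 0.60 for V1 minus V0. With every probe set on its own, V1 minus V0 was 0.12 in samples 2 and 4, against 0.24 and 0.46, and counted among the 243. Counts were compared without their totals, so 50 of 65 probe sets above the limit, against 43 of 46 genes, were also among the 243. The tally therefore does not measure how stable a result is. At the 75th percentile as the limit, 9 hydrolases were above it. With the values as deposited, where sample 1 has another scale, the median SD was 1.22 for hydrolases, 0.98 for membrane proteins and 1.10 for the proton pump, and 22 members had an outlying sample. That count was 1 after quantile normalization, 1 with no filter on signal and 2 with every probe set on its own, against 0 as reported. The proton pump median relative to all tested genes, near 0 throughout, was 0.092 in sample 2 and 0.16 in sample 4 with no filter on signal, 0.11 in sample 4 with every probe set on its own, and -0.061 in sample 4 and 0.11 in sample 5 after quantile normalization. Leaving out 1 of the other samples at a time gave -0.12 to 0.094 in sample 1, -0.034 to 0.069 in sample 2, -0.037 to 0.059 in sample 4 and -0.082 to 0.057 in sample 5. The causes were not tested, beyond the scale of sample 1. The V1 minus V0 difference and its alternatives were chosen after seeing the data; leaving out 1 sample gave -0.93 to -0.60 in sample 1 and -0.71 to -0.25 in sample 5, and without sample 1 it was 0.03 in sample 2 and 0.18 in sample 4. limma's variance test called 0 members in every alternative. No paired analysis was possible because all samples belong to 1 group. With no detection calls, low signals cannot be told from background.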
